A study of Homo sapiens with 42 samples.

Results

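The nuclear-encoded genes of oxidative phosphorylation were followed through 42 3′-end sequencing libraries of the human breast cancer line MDA-MB-231. They were taken by symbol from the protein-coding genes of GENCODE 29: all symbols starting with NDUFA, NDUFB, NDUFC, NDUFS, NDUFV, UQCR, COX4 to COX8 or ATP5, together with SDHA, SDHB, SDHC and SDHD, and without the NDUFAF assembly factors. Of 91 such symbols, 55 reached a mean of 10 counts in at least 1 of the 3 deposited tables, out of 42145 genes in all. They comprise 25 of 40 symbols of complex I, 3 of 4 of complex II, 7 of 9 of complex III, 6 of 17 of complex IV and 14 of 21 of complex V. The complex was given by the symbol alone, so a member counted under a complex need not be one of its subunits.

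Each of the 14 groups had 3 libraries. The first table holds cytoplasmic and nuclear RNA of LM2 cells, labelled as highly metastatic to the lungs, and of Par cells, labelled as poorly metastatic. The second holds both fractions of poorly metastatic cells with HNRNPC knocked down (gHNRNPC) or with a control (gCTRL). HNRNPC is an RNA-binding protein that binds uridine tracts in nuclear transcripts. How the knockdown was made is not given in the sources used here. The third table holds total RNA of LM2 cells exposed for 6 h to 3 µM T4 in DMSO, or to as much DMSO alone, and harvested at 6 h or, after a change of medium, at 24 or 72 h. All groups are 1 cell line grown in high-glucose medium with serum, and the labels do not say whether replicates were separate cultures, so the p-values measure the spread between these libraries, which may be technical.

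Oxidative phosphorylation is the chain of inner-membrane complexes that passes electrons to oxygen and makes ATP. Complex I oxidises NADH, complex II oxidises succinate, complex III passes electrons to cytochrome c, complex IV reduces oxygen and complex V, the ATP synthase, uses the proton gradient. Most subunits are encoded in the nucleus and imported, while a few core subunits of complexes I, III, IV and V are encoded by mitochondrial DNA. Nuclear respiratory factor 1, ETS-family factors and YY1 are textbook regulators of the nuclear genes. Many cancer lines keep this chain while also fermenting glucose.

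Libraries held 798052 to 2304698 counts. HNRNPC stood at 86.8, 113 and 99.8 CPM (counts scaled to a common library size) in gHNRNPC cytoplasm, against 549, 490.3 and 496 CPM in gCTRL cytoplasm, and at 86.9, 117 and 91.6 CPM in gHNRNPC nuclei, against 439, 531 and 632 CPM in gCTRL nuclei. VIM and CD44, genes this mesenchymal line is known to express, were detected in all libraries, and the hormone receptor genes ESR1 and PGR had at most 1 count. Of markers of other cell types, PTPRC and PECAM1 stayed at or below 1.2 CPM, while CD68 reached 125 CPM and COL1A1 61.3 CPM, and their part in the results was not tested. In such bulk RNA fewer cells of a type and less RNA per cell cannot be told apart. The nuclear RNA MALAT1 was higher in every nuclear library than in any cytoplasmic one, at 12.6 CPM or more in nuclei against 6.19 CPM or less in cytoplasm in the first table, and at 31.7 CPM or more against 8.68 CPM or less in the second. NEAT1, the other nuclear RNA looked at, had 0 counts in the first table and at most 3 in the second, too few for a check. Mitochondrially encoded mRNAs were also higher in the nuclear fraction, as given below. By low scaling factors, 3 libraries stood apart. These were the nuclear libraries numbered 2 of LM2 and of Par, with factors of 0.722 and 0.731, and library 3 of T4 at 6 h, with 0.499. The other libraries of the T4 table had at least 0.843. At the high end, library 2 at 72 h had a factor of 1.45 with T4 and 1.25 with DMSO. CPM are scaled by edgeR's TMM factors within a table. A gene is called changed at an adjusted p below 0.05 over all genes tested in that comparison.

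Each read marks 1 transcript end, and a member's level here is the sum over its listed ends. The mean level of a member over the groups of a table ran from 3.37 to 2348 CPM with a median of 158 CPM in the LM2 and Par table, from 6.24 to 1846 CPM with a median of 136 CPM in the knockdown table, and from 3.25 to 1945 CPM with a median of 139 CPM in the T4 table. In each table the highest member of complex I was NDUFS6, an accessory subunit, with mean levels of 922, 767 and 1111 CPM. The highest of complex II was SDHA, the flavoprotein, at 119, 114 and 112 CPM. The highest of complex III was UQCRHL, a retrocopy of the hinge subunit gene UQCRH, at 409, 499.9 and 210.1 CPM. The highest of complex IV was COX7C, at 1317, 1083 and 636 CPM, and the highest of complex V was ATP5MG, subunit g of the membrane part, at 2348, 1846 and 1945 CPM. UQCRHL and UQCRH are near-identical, so how the counting split their reads is uncertain.

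The other 36 symbols fell below 10 counts in all tables. COX6A2 and COX6B1 were not listed. ATP5MF-PTCD1, COX6C, COX8C, NDUFA2, NDUFB8 and NDUFC2-KCTD14 were listed with 0 counts throughout. The remaining 28 had some counts: ATP5F1D, ATP5F1E, ATP5MC3, ATP5MF, ATP5MGL, ATP5PB, COX4I2, COX5B, COX6B2, COX7A1, COX7A2L, COX7B, COX7B2, NDUFA10, NDUFA11, NDUFA12, NDUFA3, NDUFA4, NDUFA4L2, NDUFA5, NDUFA7, NDUFAB1, NDUFB10, NDUFB2, NDUFB9, SDHD, UQCRC2 and UQCRFS1. Whether a low listed count reflects low expression or the choice of listed ends was not tested. Just inside the minimum were COX7A2 and UQCRQ, each with a highest table mean of 12.25 counts, NDUFB6 with 13.8 and NDUFA6 with 16.2. Just outside were SDHD with 9.25, NDUFA11 with 7.72, ATP5F1E with 7.58 and ATP5PB with 5.08.

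The transcript that carried most of a member's reads in the knockdown table was annotated as protein-coding in 25 of the 55, as a retained intron in 9, as a processed transcript in 6 and as a target of nonsense-mediated decay in 5. In the other 10 it was a genomic position rather than a transcript. These were ATP5PD, COX5A, COX7A2, NDUFA9, NDUFB6, NDUFS6, SDHC, UQCR10, UQCRB and UQCRQ. Positions were given to the gene of the transcript they are listed under, and their genome build could not be settled. Only chromosome and strand were checked. Where looked at, as for ATP5F1A, positions lay outside the gene's GRCh38 bounds, so their gene is uncertain. This bears on all results for these 10 members, among them NDUFS6, UQCR10, UQCRB and UQCRQ, and on the second end of NDUFV3. The ends matter because the assay reads nothing else of a gene, so the last 30 bases of the main transcript are shown for 5 members the results turn on, 5′ to 3′ on the sense strand, from GENCODE 29 (GRCh38). Capitals mark the polyadenylation hexamer AATAAA, found in the first 3.
NDUFA13, chr19:19528168-19528197, plus strand: ctgggacggAATAAAtgctctgcagacctg
ATP5F1A, chr18:46084144-46084173, minus strand: tgaaaAATAAAggttccataatgcatagtt
NDUFV3, chr21:42909076-42909105, plus strand: aaaAATAAAatccactcaagagtcacaagg
UQCRHL, chr1:15807169-15807198, minus strand: agttctgtgatctgcaaaaaaaaaaaaaaa
NDUFS8, chr11:68035249-68035278, plus strand: caacatggcaaaaccccgactctacaacaa
AATAAA or ATTAAA was found in the last 30 bases of 24 of the 35 members whose main entry is a transcript with the same version in GENCODE 29, or 68.57%, against 2849 of 4966 such transcripts of all genes with a mean of at least 10 counts in the knockdown table, or 57.37%. By type the contrast went both ways. Among protein-coding transcripts it was 8 of 16 members, or 50%, against 64.02%. Among retained introns it was 7 of 9, or 77.78%, against 54.97%, and among targets of nonsense-mediated decay 3 of 4, or 75%, against 56.47%. NDUFS8 lacks both hexamers in its last 30 bases and ends in an annotated retained-intron transcript, and the annotated end of UQCRHL is a run of adenines. A search for letters describes the annotation and shows no use of a site.

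Among the comparisons between cell groups or treatments, HNRNPC knockdown gave the most calls in the main fit over all groups of a table. That order depends on the fit. With only the groups compared, 25 of 52 members were called for LM2 against Par cytoplasm and 17 of 50 for T4 at 24 h. The numbers of all genes called moved as well, to 2489 and 1969. For gHNRNPC cytoplasm no alternative gave more than 16 members. In gHNRNPC cytoplasm, 12 of 55 members were called, 3 higher and 9 lower, where 23.4% of all 9351 genes tested were called, 11.7% higher and 11.7% lower. The share of the members, 12 of 55, is close to that background. The calls went lower in complex I (4 of 25), complex II (1 of 3) and complex V (3 of 14), and mostly higher in complex III (3 higher and 1 lower of 7), while none of the 6 complex IV members passed. The median log2 fold change of the members was -0.15, against 0.01 over all genes. Libraries of the groups did not overlap for 28 of 55 members and for 40.5% of all genes. With library totals in place of TMM, which moves all log2 fold changes by 0.14, the calls became 5 higher and 6 lower and the median -0.02.

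**Figure D1:**
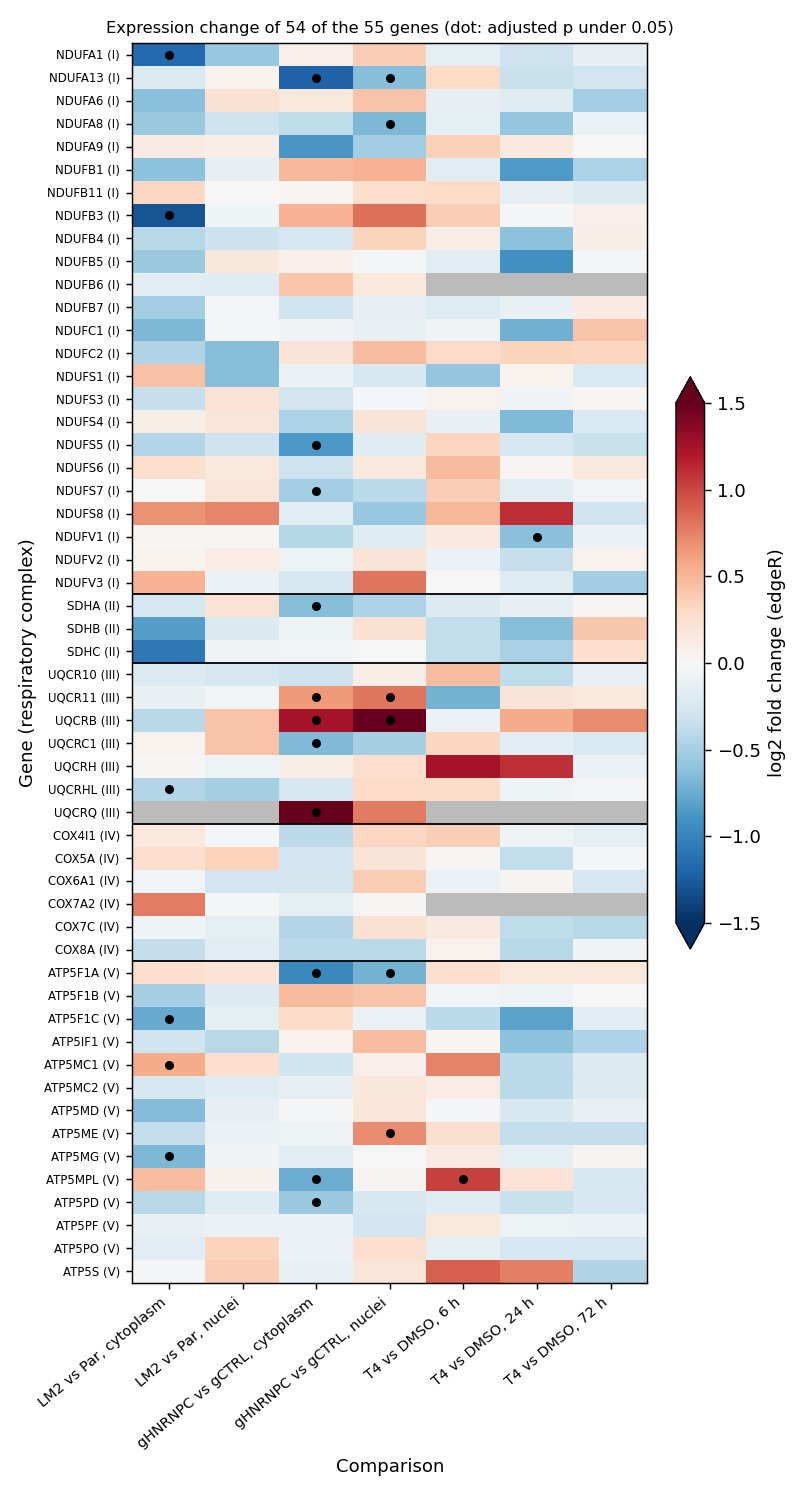
Log2 fold changes (edgeR, colour) of 54 of the 55 genes (rows, with the respiratory complex) in the 7 main comparisons (columns): LM2 over Par, gHNRNPC over gCTRL and T4 over DMSO. Dots mark an adjusted p below 0.05 over all genes and grey cells were not tested; the 11 dots for gHNRNPC cytoplasm are the most in any column, and LM2 nuclei and T4 at 72 h have none.

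Among complex I genes, NDUFA13, an accessory subunit also known as GRIM-19 (chr19:19515736-19529054, plus strand), was measured at 282, 237 and 238 CPM in gHNRNPC cytoplasm, against 583, 556 and 615 CPM in gCTRL cytoplasm. All gHNRNPC libraries were below all gCTRL libraries, and the log2 fold change was -1.21 ± 0.17 (SE; edgeR, adjusted p = 1.33e-05). In nuclei it was measured at 369.7, 384 and 395 CPM with gHNRNPC, against 667, 598 and 523 CPM with gCTRL (log2 fold change -0.64 ± 0.17; edgeR, adjusted p = 0.0110). The gene therefore fell in both fractions. NDUFS5, another accessory subunit (chr1:39026318-39034636, plus strand), was measured at 373, 387 and 403 CPM in gHNRNPC cytoplasm, against 741, 693 and 680.3 CPM in gCTRL cytoplasm (log2 fold change -0.86 ± 0.18; edgeR, adjusted p = 0.000999). In nuclei NDUFS5 did not pass, at 250.4, 272 and 309 CPM with gHNRNPC against 394, 285 and 262 CPM with gCTRL, which overlap. NDUFS7, a core subunit near the ubiquinone site, was lower in gHNRNPC cytoplasm by a log2 fold change of -0.51. NDUFA8 was lower in nuclei, at 68.1, 54.8 and 53.0 CPM with gHNRNPC against 100.2, 80.2 and 99.7 CPM with gCTRL (log2 fold change -0.67 ± 0.20; edgeR, adjusted p = 0.0296). The NDUFA8 call was lost when any of 4 of the 6 libraries was left out, with log2 fold changes of -0.83 to -0.61.

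In complex II, SDHA fell in gHNRNPC cytoplasm, at 74.9, 68.0 and 74.1 CPM against 107, 104 and 127 CPM in gCTRL cytoplasm (log2 fold change -0.64 ± 0.18; edgeR, adjusted p = 0.0133). SDHB and SDHC did not pass. In complex III, UQCRC1, a core subunit (chr3:48599002-48610976, minus strand), fell to 85.7, 95.6 and 90.4 CPM in gHNRNPC cytoplasm, against 131, 157 and 141 CPM in gCTRL cytoplasm (log2 fold change -0.66 ± 0.18; edgeR, adjusted p = 0.0107). The 3 complex III members called higher were the small subunits UQCR11, UQCRB and UQCRQ, while 3 of all 7 members had a log2 fold change below 0. UQCR11 (chr19:1597172-1605490, minus strand) was measured at 146, 126 and 134 CPM in gHNRNPC cytoplasm, against 81.6, 99.5 and 78.7 CPM in gCTRL cytoplasm (log2 fold change 0.64 ± 0.18; edgeR, adjusted p = 0.0133). In nuclei UQCR11 was measured at 112, 87.4 and 109.8 CPM with gHNRNPC, against 60.9, 65.9 and 50.2 CPM with gCTRL (log2 fold change 0.81 ± 0.20; edgeR, adjusted p = 0.00683). In both fractions the groups did not overlap. The UQCR11 calls were lost without either of 2 libraries in each fraction, gCTRL 1 or 3 in cytoplasm and gCTRL 3 or gHNRNPC 1 in nuclei, with edgeR's adjusted p up to 0.0663 in cytoplasm and 0.0549 in nuclei.

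UQCRB and UQCRQ, small subunits of complex III, rest on few reads. UQCRB had 26, 39 and 56 counts in gHNRNPC cytoplasm, against 15, 6 and 27 counts in gCTRL cytoplasm (log2 fold change 1.24 ± 0.41; edgeR, adjusted p = 0.0313), and 6, 16 and 11 counts in gHNRNPC nuclei, against 7, 2 and 2 counts in gCTRL nuclei (log2 fold change 1.86 ± 0.60; edgeR, adjusted p = 0.0403). All UQCRB reads of the table lay at genomic positions and none at an annotated transcript end. On the CPM scale its libraries did not overlap in either fraction, though the raw counts do in both. The call was lost in either fraction when any of 4 of the 6 libraries was left out. UQCRQ had 24, 22 and 45 counts in gHNRNPC cytoplasm, against 6, 7 and 14 counts in gCTRL cytoplasm (log2 fold change 1.65 ± 0.41; edgeR, adjusted p = 0.00462). Its call was lost without gHNRNPC library 3 (log2 fold change 1.38; edgeR, adjusted p = 0.0506). In nuclei UQCRQ was at 3, 6 and 8 counts with gHNRNPC and 5, 3 and 4 counts with gCTRL and did not pass.

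None of the 6 complex IV members was called in either fraction. In cytoplasm all 6 had a log2 fold change below 0 under TMM, with a median of -0.34, and 5 of 6 with library totals. COX7C stood at 1183, 1138 and 1179 CPM in gHNRNPC cytoplasm, against 1506, 1700.0 and 1558 CPM in gCTRL cytoplasm, without overlap but also without passing (log2 fold change -0.44 ± 0.18; edgeR, adjusted p = 0.0724). In complex V, ATP5F1A, the alpha subunit of the catalytic head (chr18:46080248-46104334, minus strand), was measured at 104, 101 and 100.2 CPM in gHNRNPC cytoplasm, against 203, 209 and 186 CPM in gCTRL cytoplasm (log2 fold change -0.97 ± 0.17; edgeR, adjusted p = 0.000222). In nuclei it was measured at 93.7, 92.9 and 88.6 CPM with gHNRNPC, against 134, 146 and 169 CPM with gCTRL (log2 fold change -0.71 ± 0.17; edgeR, adjusted p = 0.00764). ATP5F1B, the partner beta subunit, had a log2 fold change of 0.47 in cytoplasm and did not pass (edgeR, adjusted p = 0.0514). ATP5MPL, a small proteolipid of the membrane part, was measured at 1307, 916 and 1165 CPM in gHNRNPC cytoplasm, against 1658, 2388 and 1637 CPM in gCTRL cytoplasm (log2 fold change -0.75 ± 0.21; edgeR, adjusted p = 0.0121), and its call was lost without gHNRNPC library 2 and without gCTRL library 2 (for gCTRL, log2 fold change -0.55; edgeR, adjusted p = 0.0844). ATP5PD, subunit d of the stalk, was lower by a log2 fold change of -0.55. ATP5ME, subunit e, was called higher in nuclei although its libraries overlapped, at 297, 596 and 412 CPM with gHNRNPC against 324, 195 and 281 CPM with gCTRL (log2 fold change 0.71 ± 0.22; edgeR, adjusted p = 0.0310). Without gHNRNPC library 2 the log2 fold change of ATP5ME was 0.36 (edgeR, adjusted p = 0.312), and the call was lost when any of 3 of the 6 libraries was left out.

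**Figure D2:**
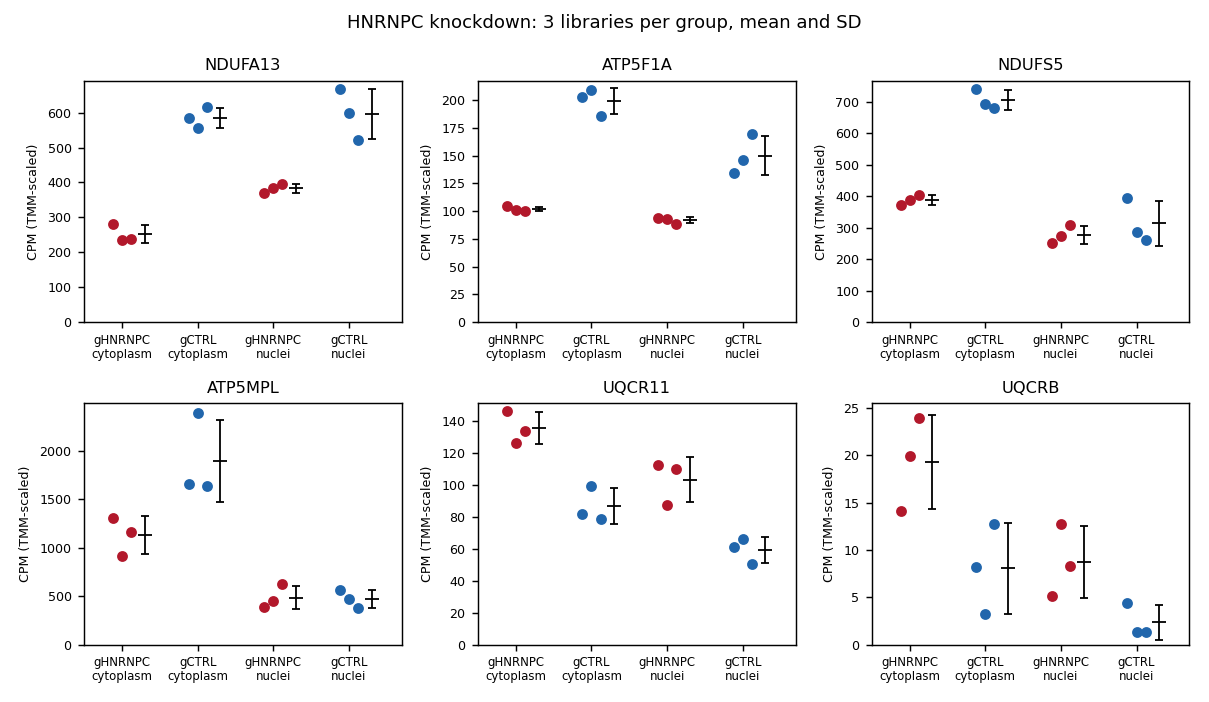
CPM (TMM-scaled, y axis from 0) of 6 genes in each library of gHNRNPC and gCTRL cytoplasm and nuclei, with the mean and SD of 3 libraries beside the points. NDUFA13 and ATP5F1A lie lower and UQCR11 higher in gHNRNPC in both fractions without overlap, while NDUFS5 and ATP5MPL lie lower in cytoplasm and overlap in nuclei, and UQCRB lies below 25 CPM throughout.

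In gHNRNPC nuclei, 6 of 55 members were called, 3 higher and 3 lower, where 14.1% of all genes were called, 8.43% higher and 5.7% lower. The median log2 fold change was 0.16 against 0.04 over all genes, and 0.0035 without gCTRL library 2, 0.05 without gHNRNPC library 2 and 0.05 with library totals. The libraries did not overlap for 16 members and 29% of all genes. With library totals, which move log2 fold changes by -0.12, the calls became 1 higher and 6 lower. Members called the same way in both fractions were UQCR11 and UQCRB, higher, and NDUFA13 and ATP5F1A, lower. The difference of the knockdown effect between nuclei and cytoplasm was also tested, and 0 members passed (edgeR; 11 at an unadjusted p below 0.05), where 0.0214% of all genes passed. Its median over the members was 0.27 against 0.04 over all genes, with 45 of 55 above 0 under TMM and 30 of 55 with library totals. The smallest adjusted p was 0.321, for COX4I1 (edgeR, log2 difference 0.70 ± 0.24), the main isoform of a complex IV subunit. The members took 1.66% ± 0.068 of counts in gHNRNPC cytoplasm and 1.86% ± 0.055 in gCTRL cytoplasm, and 1.14% ± 0.081 in gHNRNPC nuclei and 1.17% ± 0.064 in gCTRL nuclei (SD, n = 3 each).

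The promoter of UQCR11, the member that rose in both fractions on more than a few reads, is shown because it holds sites of 2 textbook regulators. It is printed from RefSeq (GRCh38.p14), 5′ to 3′ on the sense strand, from 250 bases before to 50 after the gene's start, with matches to the ETS motif CCGGAAGT and to the NRF1 motif (GCGC, any base, then TGCGC) in capitals.
UQCR11, chr19:1605413-1605712, minus strand: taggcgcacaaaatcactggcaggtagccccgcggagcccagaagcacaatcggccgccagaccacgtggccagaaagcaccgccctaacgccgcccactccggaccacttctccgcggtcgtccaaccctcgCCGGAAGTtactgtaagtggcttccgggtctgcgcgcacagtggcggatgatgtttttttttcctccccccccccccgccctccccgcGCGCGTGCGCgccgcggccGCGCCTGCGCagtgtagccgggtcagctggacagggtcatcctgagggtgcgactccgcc
Of 44 members matched to a RefSeq promoter by gene ID or symbol, the NRF1 motif was found on either strand in 10, or 22.73%, against 5.78% of 35116 promoters. The ETS motif was found in 7, or 15.91%, against 4.14%, and the YY1 motif AAGATGGCG in 7, or 15.91%, against 1.75%. The 35116 promoters were not limited to protein-coding genes or by counts, as the members were, so these shares are not like for like. In UQCR11 the matches do not overlap. Among members called in the knockdown comparisons, the ETS motif was found in NDUFA13, ATP5PD, UQCR11 and UQCRQ, the NRF1 motif in SDHA, UQCR11, UQCRC1, NDUFA8 and ATP5ME, and the YY1 motif in NDUFS7 and UQCRC1. These are matches of letters, in genes that went either way.

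Use of alternative ends, the subject of the series, could be tested for 5 members in the knockdown table, those with at least 2 ends of a mean of 10 counts. For NDUFV3, a small flavoprotein-fragment subunit of complex I (chr21:42879644-42913304, plus strand), the second end is a genomic position and the first the transcript end printed above. The second end took 26.1%, 15.9% and 19.1% of the reads of both in gHNRNPC cytoplasm, against 46.2%, 51.1% and 34.9% in gCTRL cytoplasm, or 20.4% ± 5.2 and 44.1% ± 8.3 (SD, n = 3 each). The groups did not overlap, and the log2 change of the ratio of the ends was -1.64 ± 0.44 (edgeR interaction, adjusted p = 0.0199), where 11.6% of 1168 genes tested were called. In nuclei the share was 7.27% ± 2.5 with gHNRNPC and 24.7% ± 11.7 with gCTRL, and the change of -2.22 ± 0.69 did not pass (edgeR interaction, adjusted p = 0.0750). The cytoplasmic call was lost when any of 4 of the 6 libraries was left out, with values of -1.90 to -1.44. The summed level of NDUFV3 in cytoplasm did not pass, at a mean of 40.1 CPM with gHNRNPC and 47.6 CPM with gCTRL. ATP5F1A, ATP5PD, COX5A and NDUFC2 were also tested and not called, and the smallest adjusted p among them was 0.0562, for NDUFC2 in cytoplasm (edgeR interaction, log2 change 1.34 ± 0.45). In LM2 against Par cells, NDUFV3, ATP5F1A, ATP5PD and COX5A were tested and none was called in either fraction, where 1.4% of genes were called in cytoplasm and 0% in nuclei. In T4 against DMSO, ATP5F1A, ATP5MPL, ATP5PD and COX5A were tested and none was called at 6, 24 or 72 h, where 5.33%, 2.48% and 0% of genes were called.

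Other genes of the pathway were counted from fixed lists. Of 36 assembly factors tested, 4 rose and 2 fell in gHNRNPC cytoplasm, among them UQCC2, a complex III factor (log2 fold change 2.48 ± 0.27), NDUFAF3, a complex I factor (2.42 ± 0.39), and COX20, a complex IV factor (-0.89 ± 0.24). In gHNRNPC nuclei 7 rose and 0 fell, with NDUFAF3 at 2.84 ± 0.55. Of 10 mitochondrially encoded mRNAs tested, 7 rose and 0 fell in gHNRNPC cytoplasm, with MT-ND5 at a log2 fold change of 2.29 ± 0.47 and MT-CO2 at 2.28 ± 0.50, and 4 rose in nuclei. Of 12 regulators, TFB2M, TWNK and ESRRA rose and PPARGC1A fell in cytoplasm, and ESRRA rose in nuclei. Of 12 tricarboxylic acid cycle enzymes, IDH3B rose in both fractions, while IDH2, IDH3G and DLD fell in cytoplasm and DLD in nuclei. CYCS, a cytochrome c gene, rose in cytoplasm (0.62 ± 0.19). These calls stand against the same backgrounds of 23.4% in cytoplasm and 14.1% in nuclei.

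LM2 cells were set against Par cells to ask how highly and poorly metastatic cells differ. In cytoplasm 6 of 54 members tested were called, 1 higher and 5 lower in LM2, where 10.9% of 8542 genes were called, 3.98% higher and 6.92% lower. The median log2 fold change was -0.21 against -0.02 over all genes, and the libraries did not overlap for 35 of 54 members and for 42.9% of all genes. The members took 1.66% ± 0.027 of counts in LM2 cytoplasm and 1.94% ± 0.064 in Par cytoplasm (SD, n = 3 each). UQCRQ was not tested here.

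NDUFB3, an accessory subunit of the membrane arm of complex I (chr2:201071433-201085750, plus strand), was measured at 20.6, 27.2 and 15.4 CPM in LM2 cytoplasm, against 51.7, 72.9 and 30.8 CPM in Par cytoplasm (log2 fold change -1.30 ± 0.31; edgeR, adjusted p = 0.0260). NDUFA1, an X-linked membrane-arm subunit (chrX:119871487-119876662, plus strand), was measured at 199.7, 210.3 and 181 CPM in LM2 cytoplasm, against 478, 507 and 344 CPM in Par cytoplasm (log2 fold change -1.17 ± 0.26; edgeR, adjusted p = 0.0200). Both genes were lower in every LM2 library, with a wide spread among Par libraries. In complex II none passed, with mean levels of 46.7 CPM in LM2 and 98.3 CPM in Par cytoplasm for SDHC and of 23.8 CPM and 42.3 CPM for SDHB, the membrane anchor and the iron-sulfur subunit. In complex III, UQCRHL was measured at 560.0, 527 and 520.2 CPM in LM2 cytoplasm, against 712, 722 and 744 CPM in Par cytoplasm (log2 fold change -0.44 ± 0.12; edgeR, adjusted p = 0.0453). None of the 6 complex IV members passed.

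In complex V, ATP5F1C, the gamma subunit of the rotor (chr10:7788129-7807815, plus strand), was measured at 73.2, 76.7 and 65.2 CPM in LM2 cytoplasm, against 114, 140.1 and 108 CPM in Par cytoplasm (log2 fold change -0.75 ± 0.16; edgeR, adjusted p = 0.0163). ATP5MG was measured at 2040.3, 1872 and 2123 CPM in LM2 cytoplasm, against 3504, 3137 and 2984 CPM in Par cytoplasm (log2 fold change -0.67 ± 0.18; edgeR, adjusted p = 0.0404). ATP5MC1, a gene of the c ring (chr17:48892765-48895871, plus strand), was the member that rose, at 1297, 1275 and 1447 CPM in LM2 cytoplasm, against 912, 771 and 1059.7 CPM in Par cytoplasm (log2 fold change 0.55 ± 0.15; edgeR, adjusted p = 0.0413). The groups did not overlap for any of the 6 genes. The calls hold only in part without 1 library: leaving out LM2 library 1 or 3, or Par library 1 or 2, left 0 of them or of any other member, leaving out LM2 library 2 left 1 (NDUFB3, log2 fold change -1.52; edgeR, adjusted p = 0.0459), and leaving out Par library 3 left a total of 6 members called, not all of them the same genes, since ATP5MG and UQCRHL lost their calls in all 6 cases. With library totals 1 member was called, NDUFA1 (log2 fold change -1.24; edgeR, adjusted p = 0.0152). Without both nuclear libraries that stand apart, which share the estimate of the spread, 15 members were called, 2 higher and 13 lower. The number of all genes called moved as well, from 931 to 1581.

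**Figure D3:**
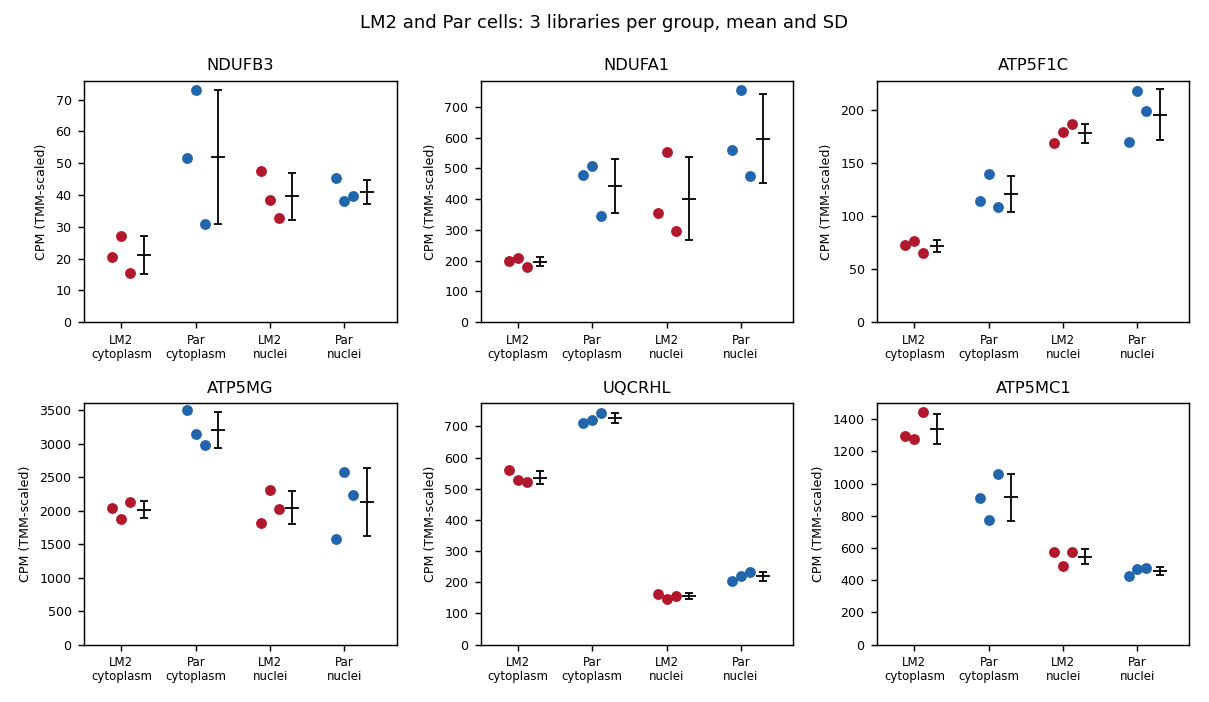
CPM (TMM-scaled, y axis from 0) of the 6 genes called in cytoplasm, in each library of LM2 and Par cytoplasm and nuclei, with the mean and SD of 3 libraries beside the points. In cytoplasm NDUFB3, NDUFA1, ATP5F1C, ATP5MG and UQCRHL lie lower and ATP5MC1 higher in LM2 without overlap.

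In nuclei 0 of 54 members were called between LM2 and Par (edgeR; 7 at an unadjusted p below 0.05, and 1 by DESeq2), where 2.22% of all genes were called, 1.15% higher and 1.08% lower. The smallest adjusted p were 0.0706 for NDUFC2 (edgeR, log2 fold change -0.64 ± 0.16) and 0.0718 for UQCRHL (edgeR, -0.50 ± 0.13). UQCRHL was measured at 163, 147 and 158 CPM in LM2 nuclei, against 205, 220.2 and 234 CPM in Par nuclei, lower in every LM2 library. The difference of the LM2 effect between nuclei and cytoplasm was called for 0 members and for 0% of all genes (edgeR; 6 members at an unadjusted p below 0.05). For NDUFB3 that log2 difference was 1.24 ± 0.44 (edgeR, adjusted p = 0.489). Of the fixed lists in cytoplasm, SCO2, a copper chaperone of complex IV, rose in LM2 (0.66 ± 0.18), and ESRRA (-1.66 ± 0.30), OGDH (-1.56 ± 0.27) and SUCLG2 (-1.72 ± 0.38) fell, while 0 of 10 mitochondrially encoded mRNAs passed. Tested there were 33 assembly factors, 12 regulators and 12 tricarboxylic acid cycle enzymes. Of all genes, 3.98% were called higher and 6.92% lower in LM2 cytoplasm. In nuclei no gene of the lists passed.

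T4 was compared with DMSO at each harvest in LM2 cells, with 52 members tested, since NDUFB6, UQCRQ and COX7A2 were too low. At 6 h 1 member was called higher and 0 lower, where 16% of 8035 genes were called, 3.41% higher and 12.6% lower. The median log2 fold change was 0.07 against -0.11 over all genes. Leaving out 1 library gave medians of 0.02 to 0.24. With library totals, which move log2 fold changes by -0.49, the split became 0 higher and 1 lower and the median -0.30. The called gene, ATP5MPL, was measured at 868, 1003 and 2743 CPM with T4, against 711, 812 and 740.5 CPM with DMSO (log2 fold change 1.02 ± 0.33; edgeR, adjusted p = 0.0430). Without T4 library 3 the log2 fold change was 0.32 (edgeR, adjusted p = 0.361), and the call was lost when any of 4 of the 6 libraries was left out.

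That library gave other members extreme values as well. The members took 0.721% of its counts, against 1.17% and 1.18% in the other T4 libraries at 6 h and 1.14% ± 0.047 in the DMSO libraries (SD, n = 3). It was the lowest of the 3 T4 libraries for 31 of 55 members and the highest for 19. NDUFA1 had 10 counts there and 296 and 282 in the others, and NDUFA8 had 4 counts there and 80 and 85 in the others. Over the members its median deviation from the group mean was -0.41 on the log2 scale, and -0.10 over all genes. Without it, 2 members were called at 6 h, 1 higher and 1 lower, and 1126 of all genes were called, against 1286 with it.

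At 24 h 1 member was called lower and 0 higher, where 5.24% of all genes were called, 2.2% higher and 3.04% lower. NDUFV1, the NADH-binding flavoprotein of complex I (chr11:67605653-67612554, plus strand), was measured at 121, 118 and 135 CPM with T4, against 184, 218 and 175 CPM with DMSO (log2 fold change -0.63 ± 0.17; edgeR, adjusted p = 0.0359). The groups did not overlap for this gene, for 17 of 52 members or for 37.9% of all genes. The call was lost when any of the 6 libraries was left out, with log2 fold changes of -0.70 to -0.53. The median log2 fold change of the members was -0.21 against 0.02 over all genes, with 40 of 52 below 0 (46 of 52 with library totals), and 12 members had an unadjusted p below 0.05. Without T4 library 3 of 6 h, which shares the estimate of the spread, 11 members were called, 1 higher and 10 lower. The number of all genes called moved as well, from 421 to 1231. The members took 1.09% ± 0.077 of counts with T4 and 1.40% ± 0.025 with DMSO at 24 h (SD, n = 3 each).

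At 72 h 0 members were called (edgeR; 2 at an unadjusted p below 0.05, and 1 by DESeq2), where 0.261% of all genes were called, 0.0996% higher and 0.162% lower. The median was -0.10 under TMM and 0.05 with library totals. The members took 1.36% ± 0.099 of counts with T4 and 1.32% ± 0.13 with DMSO. NDUFV1 stood at 171, 139 and 163 CPM with T4 and 168, 158 and 175 CPM with DMSO, which overlap. In DMSO alone, 0 members were called between 24 and 6 h or between 72 and 24 h (edgeR), where 0% and 2.69% of all genes were called. Between 24 and 6 h, however, 42 of 52 members lay above 0 in DMSO (46 with library totals). Their median was 0.15 against 0.02 over all genes. The members took 1.14% ± 0.047 of counts in DMSO at 6 h and 1.40% ± 0.025 at 24 h (SD, n = 3 each). The T4 values at 24 h are set against that higher DMSO level.

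The T4 effect itself was compared between harvests. Between 24 and 6 h it was lower for 2 of 52 members, where 9.1% of all genes passed, 7.24% higher and 1.85% lower. The median difference was -0.36 against 0.09 over all genes, with 44 of 52 members below 0. With library totals, which move this difference by 0.29, the median was -0.11 and 27 of 52 were below 0, and leaving out 1 library gave medians of -0.52 to -0.23. UQCR10, a small subunit of complex III (chr22:29767369-29770413, plus strand), was measured at 80.0, 78.4 and 68.2 CPM with T4 and 53.9, 50.3 and 61.1 CPM with DMSO at 6 h, and at 37.1, 50.8 and 47.8 CPM with T4 and 53.4, 59.8 and 64.2 CPM with DMSO at 24 h. All T4 libraries were above DMSO at 6 h and below DMSO at 24 h, although neither harvest passed alone, and the difference of the log2 fold changes was -0.85 ± 0.25 (edgeR interaction, adjusted p = 0.0388). For NDUFV1 it was -0.78 ± 0.24 (edgeR interaction, adjusted p = 0.0473), with 175, 199.7 and 193 CPM with T4 and 169, 169 and 173 CPM with DMSO at 6 h. With library totals 0 members were called lower and 1 higher. Without T4 library 3 of 6 h, 14 members passed, UQCR10 at -0.97 (edgeR interaction, adjusted p = 0.0109) and NDUFV1 at -0.83 (edgeR interaction, adjusted p = 0.0155) among them. The number of all genes that passed moved as well, from 731 to 1127. Between 72 and 24 h, 0 members passed (edgeR; 3 at an unadjusted p below 0.05), where 0.0871% of all genes passed.

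**Figure D4:**
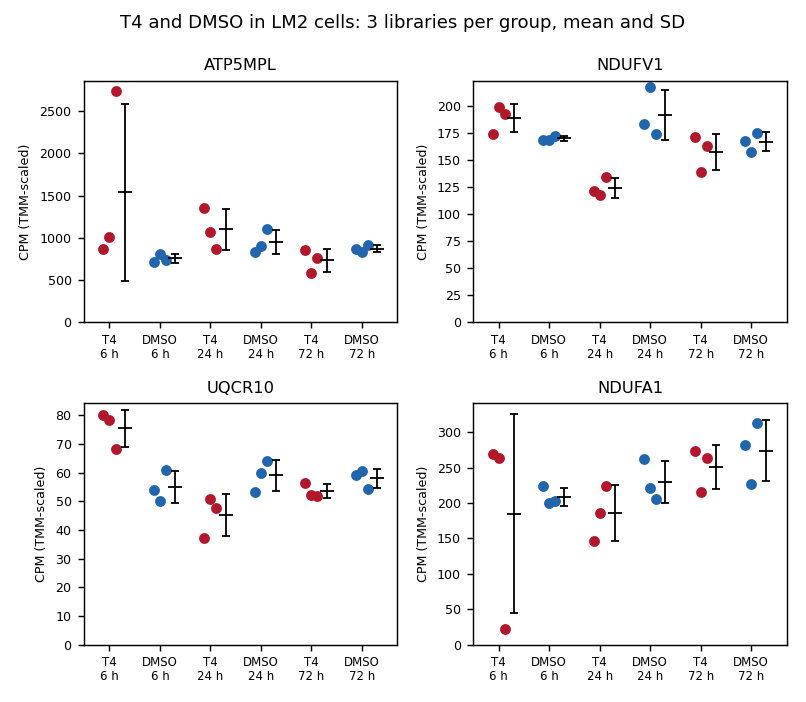
CPM (TMM-scaled, y axis from 0) of 4 genes in each T4 and DMSO library of LM2 cells at 6, 24 and 72 h, with the mean and SD of 3 libraries beside the points. NDUFV1 lies lower with T4 at 24 h, UQCR10 higher at 6 h and lower at 24 h, and ATP5MPL and NDUFA1 show the distant T4 library 3 at 6 h.

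Of the fixed lists at 6 h, 4 of 31 assembly factors fell with T4, among them COA7 (log2 fold change -2.33 ± 0.40), and TTC19 rose (0.99 ± 0.30). That share is close to the background, since 12.6% of all genes were called lower and 3.41% higher. Of 8 regulators tested, ESRRA (-1.65 ± 0.34) and TWNK (-2.21 ± 0.50) fell, and MT-ND6 rose as 1 of 10 mitochondrially encoded mRNAs tested (0.93 ± 0.25). The genes of the lists were not run without T4 library 3 of 6 h or with library totals. At 24 h the assembly factors ACAD9 (-1.76 ± 0.32), COA4 (-1.65 ± 0.33) and UQCC3 (-1.22 ± 0.17) fell, and 0 genes of the other lists passed. They were 3 of 31 tested, where 3.04% of all genes were called lower. At 72 h 0 genes of the lists passed (edgeR).

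Nuclei were compared with cytoplasm in each cell group. These comparisons use the same libraries as those above. More members were lower than higher in nuclei in all 4 groups, while over all genes more were higher. In LM2, 11 members were higher and 17 lower of 54, where 55% of all genes were called, 31.4% higher and 23.5% lower. In Par, 5 were higher and 18 lower of 54, against 47.8% of all genes called, 25.8% higher and 21.9% lower. With gHNRNPC, 9 were higher and 25 lower of 55, against 54.4%, 31.3% higher and 23.1% lower. With gCTRL, 6 were higher and 31 lower of 55, against 61.5%, 33.9% higher and 27.6% lower. With library totals the members still split to lower in each group (10 higher and 14 lower, 4 and 15, 7 and 29, 7 and 27, in the same order of groups). The medians of the members were -0.10 in LM2, -0.29 in Par, -0.48 with gHNRNPC and -0.71 with gCTRL, against 0.22, 0.07, 0.03 and 0.06 over all genes. The LM2 median ran from -0.16 to 0.0045 when 1 library was left out, the lowest without nuclear library 2 and the highest without nuclear library 3, and was -0.22 with median-of-ratios factors. Lower in all 4 groups were 13 of 54 members, or 24.1%, against 14.8% of the 8302 genes tested in both tables. Among them are ATP5IF1, ATP5MC1, ATP5MC2, ATP5MPL, ATP5PF, ATP5PO, NDUFB4, NDUFC1, NDUFS6, NDUFV2, UQCR10 and UQCRHL. Higher in all 4 were COX6A1, NDUFC2 and NDUFS8, or 5.56%, against 19.5% of all genes.

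**Figure D5:**
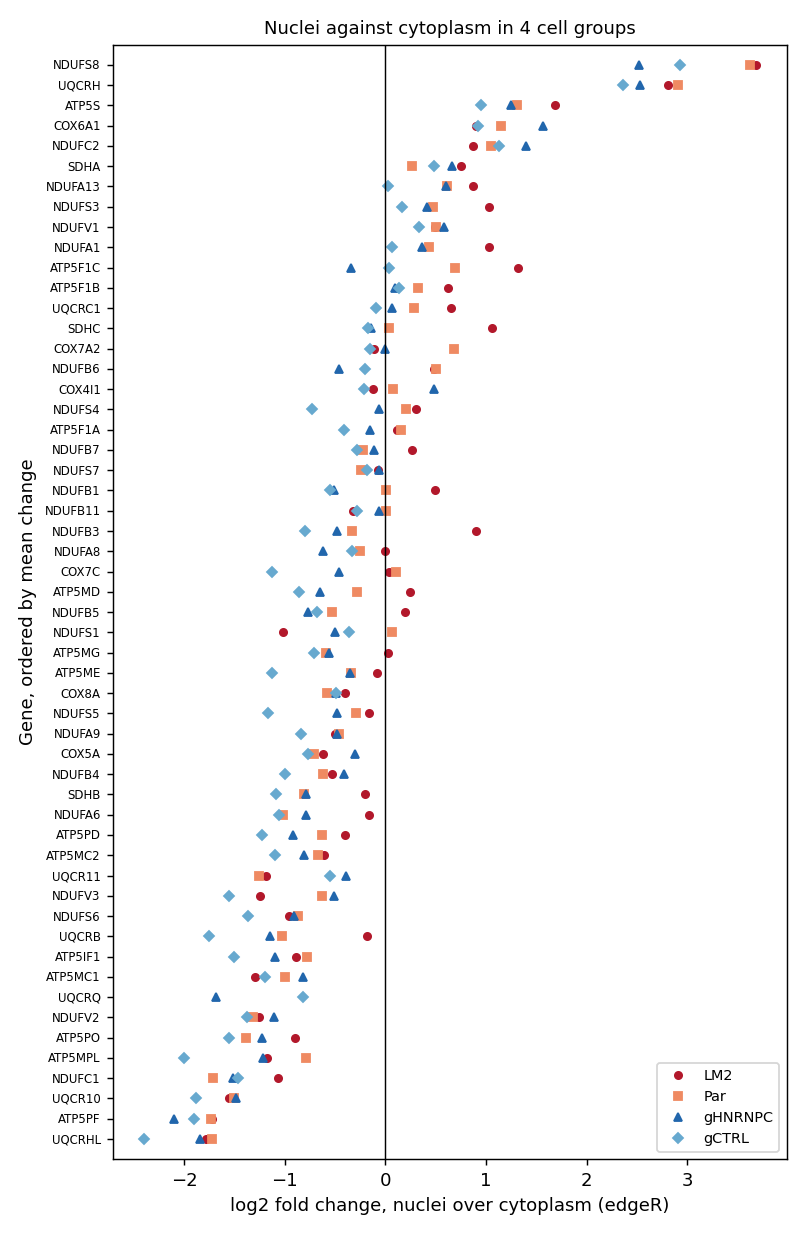
Log2 fold change of nuclei over cytoplasm (x axis, edgeR) for 54 of the 55 genes (rows, ordered by the mean) in LM2, Par, gHNRNPC and gCTRL cells. UQCRHL, ATP5PF and UQCR10 lie below -1 in all 4 groups, and NDUFS8 and UQCRH lie above 2 in all 4.

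UQCRHL was measured at 163, 147 and 158 CPM in LM2 nuclei, against 560.0, 527 and 520.2 CPM in LM2 cytoplasm. Its log2 fold changes were -1.78 in LM2, -1.72 in Par, -1.84 with gHNRNPC and -2.40 with gCTRL. UQCRH, whose main listed transcript is an annotated retained intron, went the other way, at 40.9, 20.7 and 40.9 CPM in gHNRNPC nuclei, against 5.97, 4.09 and 7.28 CPM in gHNRNPC cytoplasm, and at 36.8, 25.2 and 23.8 CPM in gCTRL nuclei, against 3.26, 6.49 and 6.64 CPM in gCTRL cytoplasm (log2 fold changes 2.53 and 2.36). In LM2 nuclei UQCRH stood at 1.05, 90.1 and 23.7 CPM and in Par nuclei at 7.18, 105 and 10.8 CPM, high in the libraries numbered 2 that stand apart, and it did not pass in either. ATP5PF, coupling factor 6 of the stalk, had log2 fold changes of -1.72 in LM2, -1.73 in Par, -2.10 with gHNRNPC and -1.91 with gCTRL. UQCR10 had -1.55, -1.5, -1.49 and -1.88 in the same groups.

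NDUFS8, a core iron-sulfur subunit of complex I (chr11:68030617-68036644, plus strand), was measured at 22.1, 17.5 and 22.7 CPM in gHNRNPC nuclei, against 4.34, 1.53 and 4.71 CPM in gHNRNPC cytoplasm, and at 33.6, 31.0 and 27.7 CPM in gCTRL nuclei, against 4.35, 4.32 and 3.32 CPM in gCTRL cytoplasm. Its log2 fold changes were 3.68 in LM2, 3.62 in Par, 2.52 with gHNRNPC and 2.93 with gCTRL. Its main transcript is also an annotated retained intron, and it is 1 of 4 members, with ATP5S, SDHA and UQCRH, that had over 10% of reads in entries with values that were not whole. In the knockdown table such values held 93.2% of reads for NDUFS8, 93.8% for ATP5S, 100% for SDHA and 95.7% for UQCRH. COX6A1, a complex IV subunit (chr12:120438090-120440742, plus strand), was measured at 364, 339 and 371 CPM in LM2 nuclei, against 190.1, 168 and 216 CPM in LM2 cytoplasm, with log2 fold changes of 0.90 in LM2, 1.14 in Par, 1.57 with gHNRNPC and 0.92 with gCTRL. NDUFC2 had 0.87, 1.05, 1.40 and 1.13. The mitochondrially encoded mRNAs, which are made outside the nucleus, were all higher in the nuclear fraction, 10 of 10 tested in each of the 4 groups, with median log2 fold changes of 2.73 in LM2, 3.28 in Par, 5.23 with gHNRNPC and 5.70 with gCTRL. The part that mitochondria in the nuclear fraction have in the members' fraction values was not tested.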

How the data were processed

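QuantSeq REV 3′-end libraries of MDA-MB-231 cells were analysed. The authors deposited expected counts per transcript or genomic position in 3 tables. The submitters' processing notes name Salmon 0.14.1 and the build hg38. The file names read as normalised, but 98.3 to 98.8% of values were whole and library totals differed, so the values were taken for unscaled expected counts, summed per gene, rounded and tested with count models. Of 94924 entries, 89065 were given to a GENCODE 29 gene and summed, positions going with the transcript they are listed under, and 48 positions on another chromosome or strand were left out. Entries left out held 0.934 to 4.23% of reads. Columns of no sample numbered 0. The build of the position entries could not be settled, so their coordinates are not given and the gene they belong to is uncertain.

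One edgeR quasi-likelihood model was fitted per table (edgeR 4.0.16, R 4.3.3, TMM, filterByExpr, all groups, no replicate block), with p-values adjusted over all 8542, 9351 or 8035 genes tested. Use of ends was tested as an interaction between group and end over a gene's 2 most used entries, where both averaged 10 counts or more. DESeq2 1.42.0 and other scalings, filters, blocks and left-out libraries were alternatives. The scripts were tested on simulated data. Same-numbered libraries deviated together (correlations above 0.1 in all 3 pairs) for LM2 and Par nuclei (0.63, 0.75 and 0.15) and for T4 and DMSO at 72 h (0.27, 0.63 and 0.13), the pairing coming from the numbers in the titles and the data alone. Members and lists were chosen with earlier results of these data known. Named in each comparison were up to 5 called members in each direction with the largest changes, the highest member of each complex, members with 2 tested ends, members called the same way in both fractions or at several harvests, and all members below the minimum. Other members named (among them COX4I1, COX7C, NDUFC2, ATP5F1B, SDHB, SDHC, NDUFS7, SDHA and ATP5PD where they were not among those) were chosen after their values were seen. The values of 1 member and 1 sequence are not reported here, and that member is counted in the totals but not drawn in the figures.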

Additional observations from a re-analysis of the deposited data

Results flagged for a closer look

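The T4 effect differed between 24 and 6 h for UQCR10 by -0.85 on the log2 scale and for NDUFV1 by -0.78, by a test of the difference itself (edgeR interaction), against 9.1% of all genes. The UQCR10 call held when either of 2 of the 12 libraries was left out and was lost for the other 10, and the NDUFV1 call held for 1 and was lost for 11, with every value below 0. Of the UQCR10 reads in the T4 libraries, 97.4% lay at a genomic position, whose gene is uncertain.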

How the results depend on the processing

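Limits first: 3 libraries a group and 798052 to 2304698 counts a library leave members of a few CPM with wide errors. Genes run individually under the alternatives were up to 5 called members in each direction per comparison, and NDUFV3 for use of ends in the knockdown. Other named genes, among them SDHA, NDUFS7, ATP5PD, ATP5F1B, COX7C, COX4I1, SDHB and SDHC, were not run in this way. No gene that was run changed direction, but some medians over the members changed sign. With library totals that of T4 at 6 h became -0.30 and that of T4 at 72 h 0.05. Leaving out 1 library took that of LM2 nuclei against cytoplasm to 0.0045, that of LM2 against Par nuclei to 0.05 and that of DMSO at 72 against 24 h to -0.05, and median-of-ratios factors took that of the LM2 effect in nuclei minus cytoplasm to -0.01. Splits of calls at T4 6 h and in the T4 effect at 24 minus 6 h turned with library totals, to 0 higher and 1 lower and to 1 higher and 0 lower. Among the genes run individually, 807 of the values under alternatives stayed on their side of the threshold and 132 lost their call. Counts of called members that moved by over 1.5 times were as follows. For LM2 against Par cytoplasm (6), library totals gave 1, no filter 2, only the groups compared 25, both nuclear libraries numbered 2 left out 15 (chosen after seeing the data), and leaving out 1 library 0 to 6. In that comparison 931 of all genes were called in the main fit, 2489 with only the groups compared and 1581 without both nuclear libraries. DESeq2 gave 1 for LM2 against Par nuclei (0). Only the groups compared gave 1 in the use of ends in LM2 against Par cytoplasm (0), and leaving out 1 library 0 to 1. For gHNRNPC cytoplasm (12), leaving out 1 library gave 7 to 9. For gHNRNPC nuclei (6), the replicate block gave 3 and leaving out 1 library 2 to 5. For the use of ends in gHNRNPC cytoplasm (1), a minimum of 50 counts gave 0, the replicate block 2 and leaving out 1 library 0 to 2. For T4 at 6 h (1), median-of-ratios factors gave 3, DESeq2 6, no filter 3, the replicate block 0, only the groups compared 0, robust dispersion 0 (chosen after seeing the data) and leaving out 1 library 0 to 3. For T4 at 24 h (1), DESeq2 gave 7, no filter 5, the replicate block 0, only the groups compared 17, T4 library 3 of 6 h left out 11 (chosen after seeing the data) and leaving out 1 library 0. At 24 h 421 of all genes were called in the main fit, 1969 with only the groups compared and 1231 without T4 library 3 of 6 h. DESeq2 gave 1 for T4 at 72 h (0). For DMSO at 24 against 6 h (0), no filter and only the groups compared each gave 1. For the T4 effect at 24 minus 6 h (2), library totals gave 1, DESeq2 9, no filter 1, the replicate block 0, transcript entries only 0, only the groups compared 0, robust dispersion 1 (chosen after seeing the data) and leaving out 1 library 0 to 14. For the T4 effect at 72 minus 24 h (0), DESeq2 gave 1, no filter 2 and T4 library 3 of 6 h left out 1 (chosen after seeing the data). The cause of these moves was not tested. In the pairs where numbers went together (LM2 and Par nuclei, T4 and DMSO at 72 h) the block changed no count, and elsewhere the samples share only a number. The block gives each number the same effect in all groups of a table. It therefore cannot fit numbers that go together in some groups only, and pairing within those groups was not tested.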
